A study of Mus musculus with 8 samples.

Results

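The genes described here carry new proteins into the endoplasmic reticulum (ER) and onward to the Golgi apparatus. They were taken by symbol from the count tables of 8 mouse brain pericyte cultures. The symbols cover the signal recognition particle (Srp), the Sec61 channel with Sec62 and Sec63, the Ssr complex, the Sec11 signal peptidases, Hspa5, Hsp90b1, Pdia3 to Pdia6, the coats of COPII (Sec13, Sec16, Sec23, Sec24, Sec31) and COPI (Cop), Mia3, the Tmed cargo receptors and Surf4, the Kdelr retrieval receptors, the Sec22 SNAREs and the Creb3l transcription factors. This gave 66 protein-coding genes out of 54532 genes in the tables, and 64 of them had enough counts to be tested. Tmed6, with 0 to 11 counts per culture, and Tmed11, with 0 to 2, were not tested.

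Pericytes are the contractile cells that wrap capillaries. The cultures were primary isolates from brain of WT mice, with strain, age and sex not given in the sources used here. In the 4 vehicle cultures (1 to 4) no TGF-β1 was added, and in the 4 TGFB-1 Treated cultures (5 to 8) the medium held TGF-β1 at 5 μg/mL, which the study describes as a 48 h treatment. The comparison asks how the cytokine changes the RNA of cultured pericytes. The cells had been grown out on collagen and passaged repeatedly in media with growth factors and serum before treatment, which limits them as a model of pericytes in a vessel. The study describes 4 isolates that were treated with vehicle and with TGF-β1, so a vehicle and a treated culture probably share an isolate, but the labels do not say which. The groups were therefore compared unpaired, and p-values measure only the spread between these cultures.

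Proteins destined for secretion start on cytosolic ribosomes, are recognised by the signal recognition particle, and pass through the Sec61 channel into the ER, where chaperones and disulfide isomerases fold them. COPII coats then pack folded cargo into carriers that leave at ER exit sites, and COPI coats bring escaped ER residents and cargo receptors back. Pericytes and related mural cells use this route heavily, since they lay down collagens and other matrix proteins of the vessel wall.

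Total counts ranged from 45255235 to 47651397 per culture. Levels are given as CPM, the count of a gene scaled to a fixed library total and adjusted by TMM factors, on which 3 counts were worth 0.0631 to 0.0658 CPM. The label of pericyte was met in part. Pdgfrb (198 to 210 CPM with vehicle, 289 to 294 with TGF-β1) and Cspg4 (79.9 to 86.0 and 163 to 176) rose, Anpep (36.9 to 45.3 and 28.7 to 32.0) and Rgs5 (7.98 to 9.09 and 1.92 to 2.47) fell, and Notch3 (85.9 to 90.4 and 80.8 to 90.8) did not pass. Des stayed under 0.8 CPM and Kcnj8, Abcc9 and Vtn stayed under 0.19 CPM in each culture. The summed levels of the 9 pericyte markers were 413 to 434 CPM with vehicle and 568 to 591 with TGF-β1. The 5 fibroblast markers summed to 3717 to 3877 CPM with vehicle and 5327 to 5569 with TGF-β1, mostly Col1a1 and Col1a2, which both rose. Dcn fell (50.3 to 55.3 and 45.2 to 48.9 CPM), Pdgfra did not pass (61.3 to 64.2 and 61.01 to 65.2 CPM) and Lum was at or under 0.130 CPM. The 4 smooth muscle markers summed to 694 to 765 and 704 to 742 CPM, nearly all of it Acta2 (690 to 761 and 699 to 736 CPM). Cnn1 stayed at or under 2.81 CPM, Tagln at or under 2.04 and Myh11 at or under 1.34. Of the 4, 1 was called higher and 0 lower. Of the 6 endothelial markers, which summed to 386 to 400 and 370 to 397 CPM, Cdh5 made up nearly all and Cldn5, Tie1 and Erg stayed at or near 0. Kdr was at 16.2 to 19.3 and 17.8 to 20.4 CPM, and Pecam1 at 0.780 to 1.65 and 0.960 to 1.24 CPM. Astrocyte markers summed to 10.4 to 11.4 CPM with vehicle and 11.1 to 11.8 with TGF-β1. Within this sum Aldh1l1 rose (4.81 to 5.77 and 8.38 to 9.13 CPM) and S100b fell (4.64 to 4.95 and 1.46 to 1.94 CPM). Macrophage and microglia markers gave 2.92 to 3.84 and 4.26 to 5.08 CPM, neuron markers 2.48 to 3.16 and 2.26 to 2.79, and oligodendrocyte markers 3.86 to 5.07 and 5.15 to 5.70. The pericyte, fibroblast, macrophage and oligodendrocyte sums did not overlap between the groups, and their part in the results was not tested. In bulk RNA, fewer cells of a type and less RNA per cell cannot be told apart.

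More of the secretory genes were called higher with TGF-β1 than lower, by small amounts. Of the 64 tested, 32 were higher with TGF-β1 and 5 were lower at an adjusted p under 0.05, and 27 did not pass. That is 50% higher and 7.81% lower, beside 20.9% higher and 20.3% lower (41.3% in all) among the 22544 genes tested. The 4 treated cultures all lay above the 4 vehicle cultures for 34 of these genes and all below for 4, against 19.1% and 18.8% of genes tested. Here and below, a bare value beside a gene is its log2 fold change, TGF-β1 over vehicle. The median over the 64 genes was 0.06, against -0.01 for all genes tested. Only 5 passed with an absolute log2 fold change of at least 0.5, against 14% of all genes tested, and 55 of 64 lay within 0.25 of no change. These transcripts were abundant, and their median standard error of the log2 fold change was 0.0282 against 0.0920 for all genes tested. A range of 45.1 to 181 CPM holds the middle part of the members by level. Of all 4264 genes in it, 38.2% were higher and 27.2% lower, with a median log2 fold change of 0.03. Against genes of like level the excess of higher calls was therefore smaller, and the shortfall of lower calls was larger. The shares of the secretory genes also count those outside this range, so the match of levels is rough.

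**Figure D1:**
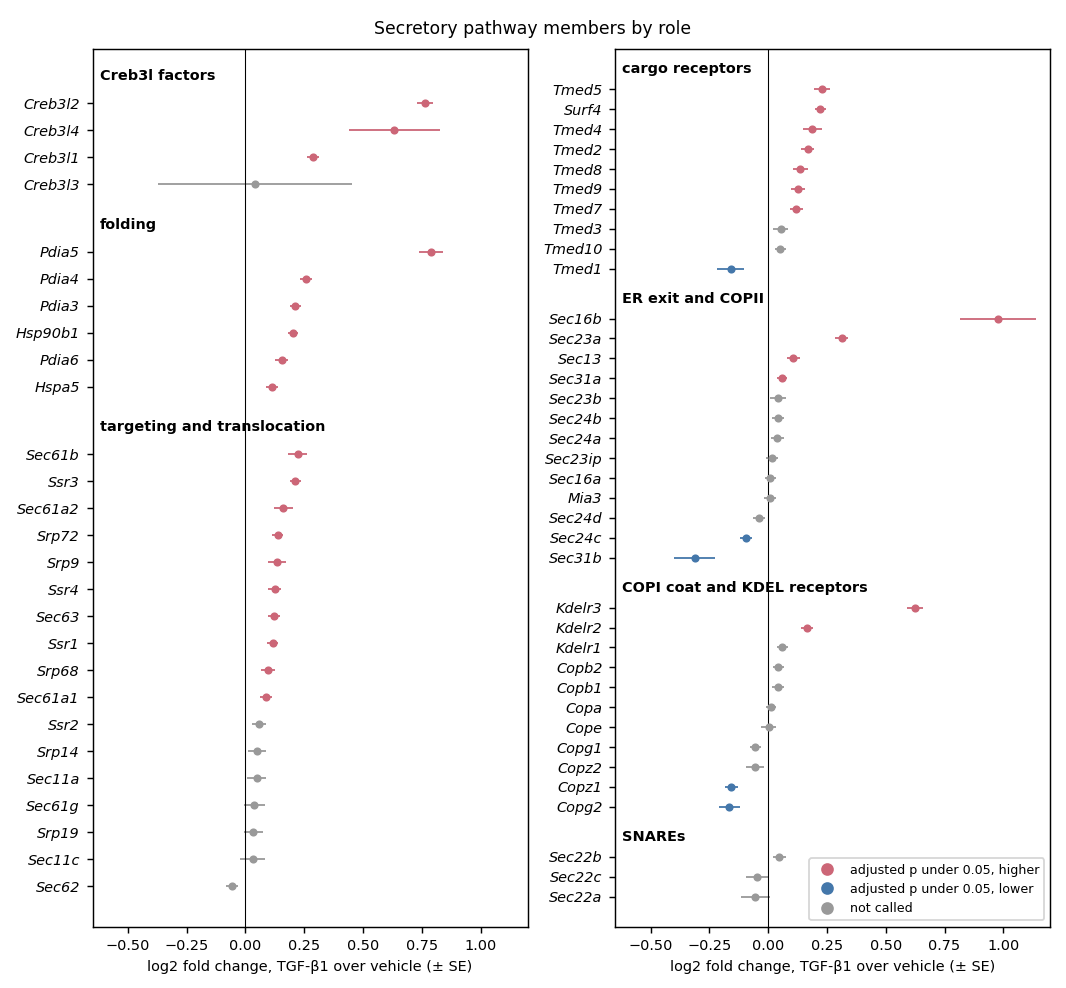
Log2 fold change (TGF-β1 over vehicle) with its standard error for the 64 tested secretory genes, grouped by role; red points passed the threshold as higher, blue as lower, grey did not pass. The folding genes lie wholly to the right of 0. The COPI coat subunits lie at or near 0 apart from Copz1 and Copg2 below it, and the KDEL receptors Kdelr2 and Kdelr3 lie above it.

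The roles differed in their counts. All 6 folding genes rose, as did 10 of 17 targeting and translocation genes, 7 of 10 cargo receptors and 3 of 4 Creb3l factors, and among these only the cargo receptor Tmed1 fell. In the coats the calls were fewer and went both ways. Of 13 ER exit and COPII genes 4 were higher and 2 lower (30.8% and 15.4%). Of 11 COPI and KDEL receptor genes 2 were higher and 2 lower (18.2% each). Over all genes tested the shares were 20.9% higher and 20.3% lower, and among the 4264 genes of like level 38.2% and 27.2%. Both shares of both groups were thus below those at like level, a range set on all members and not on each role. Beside all genes tested, the shares of the COPI group were near. The COPII group had a higher share called higher than all genes tested and a lower share called lower. None of the 3 Sec22 genes passed. Whether the roles differ from each other was not tested.

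**Figure D2:**
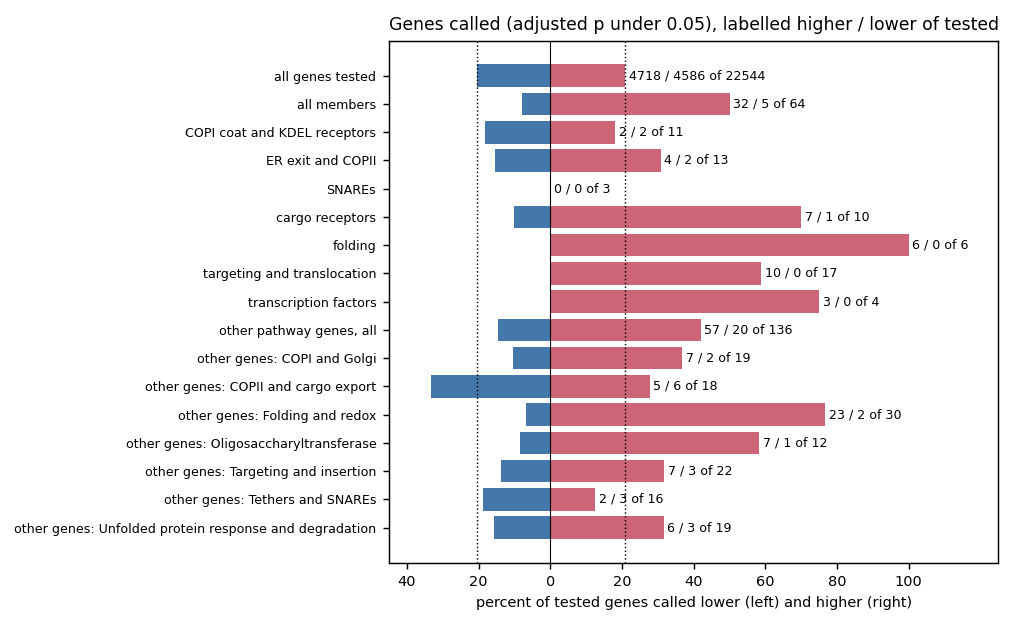
Percent of tested genes called higher (bars to the right) and lower (bars to the left) with TGF-β1, with the counts beside each bar; dotted lines mark the shares among all 22544 genes tested. Folding genes have the longest bars to the right, both among the members (6 of 6) and among other pathway genes (23 of 30).

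The Creb3l genes encode membrane-bound transcription factors of the ER that are cut in the Golgi and released to the nucleus, where Creb3l1 and Creb3l2 are known activators of secretory pathway and matrix genes. Creb3l2 (ENSMUSG00000038648, chr6:37327255-37442146, minus strand) measured 45.8, 45.6, 43.8 and 42.7 CPM in the vehicle cultures and 74.2, 77.2, 75.5 and 75.2 CPM with TGF-β1. Every treated culture was far above every vehicle culture, with a rise of 69.9% (44.5 ± 1.47 to 75.5 ± 1.24 CPM, SD, n = 4 each; log2 fold change 0.76, SE 0.03, adjusted p = 1.72e-23). Creb3l1 (ENSMUSG00000027230, chr2:91982328-92024502, minus strand), the most abundant of the family per length, measured 144.9, 137.6, 135.9 and 140.7 CPM with vehicle. With TGF-β1 it measured 168.5, 174.7, 174.6 and 164.5 CPM. The groups did not overlap and the rise was 22.03% (log2 fold change 0.29, SE 0.03, adjusted p = 1.9e-12).

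Creb3l4 (ENSMUSG00000027938, chr3:90237500-90243512, minus strand) was scarce, with 36 to 61 counts per vehicle culture and 63 to 90 per treated one. Its levels were 1.32, 1.05, 0.926 and 0.780 CPM with vehicle and 1.48, 1.55, 1.96 and 1.34 CPM with TGF-β1. The highest vehicle culture and the lowest treated one nearly met (log2 fold change 0.63, SE 0.19, adjusted p = 0.00684), and without TGF-β1 culture 7 the call was lost (log2 fold change 0.51, adjusted p = 0.0535). Creb3l3, a liver and intestine factor, had 8 to 13 counts per culture and a log2 fold change of 0.04 with an SE of 0.41, so no change could be detected at this depth.

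The promoter of Creb3l2 holds TGACGT, the core letters of a cyclic AMP response element, which the bZIP class to which the Creb3l proteins belong is known to bind. It is shown because this was the member with the smallest adjusted p. The stretch runs from 216 to 177 bases before the RefSeq start (chr6:37442325-37442364, GRCm38.p6, minus strand, upstream of the gene and in no annotated gene), with the motif in capitals.
Creb3l2: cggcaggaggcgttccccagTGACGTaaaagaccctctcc

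The signal recognition particle, the Sec61 channel and their partners bring nascent chains to and across the ER membrane. Of these 17 genes 10 rose, none fell, and the median log2 fold change was 0.10. Sec61b (ENSMUSG00000053317, chr4:47474658-47483242, plus strand), the small beta subunit of the channel, changed most. It measured 37.4, 41.2, 43.8 and 42.7 CPM with vehicle and 48.2, 50.2, 45.2 and 48.8 CPM with TGF-β1. The groups lay close but did not overlap (41.3 ± 2.77 and 48.1 ± 2.12 CPM; log2 fold change 0.22, SE 0.04, adjusted p = 2.49e-05). Within its transcript, 17.4% of 50-base words also occur in other genes, so reads from copies could be counted with it.

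Sec61a1 (ENSMUSG00000030082, chr6:88503579-88518905, minus strand), the pore-forming subunit, measured 187.3, 187.9, 190.4 and 195.3 CPM with vehicle. Its treated cultures measured 198.2, 206.7, 200.9 and 202.7 CPM. All lay above the vehicle cultures, by a small margin (190 ± 3.66 to 202 ± 3.58 CPM, a rise of 6.26%; log2 fold change 0.09, SE 0.02, adjusted p = 0.00298). The other pore gene, Sec61a2, rose as well (log2 fold change 0.16, SE 0.04, adjusted p = 0.000864), though 19.9% of its exon length is covered by exons on the opposite strand. Sec61g, the third channel subunit, gave 0.04 and did not pass. Sec63, which couples the channel to Hspa5, rose (0.12), while Sec62, its partner, gave -0.06 with an adjusted p of 0.0698.

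Of the Ssr subunits, which sit beside the channel, Ssr3 (0.21), Ssr4 (0.12) and Ssr1 (0.12) rose and Ssr2 gave 0.06. Ssr3 went from 355 ± 9.69 to 411 ± 9.28 CPM. Among the proteins of the signal recognition particle, the large pair Srp72 (0.14) and Srp68 (0.10) and the small Srp9 (0.13) rose. Srp14, which pairs with Srp9, gave 0.05. Srp19 gave 0.03 and did not pass, although all 4 treated cultures were above the vehicle ones. Srp54a and Srp54c, from the second list below and named with their values known, gave -0.04 each and did not pass. The signal peptidase subunits Sec11a (0.05) and Sec11c (0.03) did not pass.

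Folding of the translocated chains was the role in which each member rose, with a median log2 fold change of 0.21. Hspa5 (ENSMUSG00000026864, chr2:34771970-34777547, plus strand), the ER chaperone also called BiP, measured 456.8, 466.8, 504.6 and 501.3 CPM with vehicle and 523.9, 535.1, 514.7 and 514.2 CPM with TGF-β1. The vehicle cultures fell into a lower pair (1 and 2) and a higher pair (3 and 4), and the treated ones lay just above both. The summed level of the folding genes split the same way with vehicle (2062, 2043, 2186 and 2165 CPM), though Pdia5 did not. So did the sums of targeting and translocation (1813, 1808, 1875 and 1872 CPM), cargo receptors and COPI with KDEL receptors. Sums of the COPII, Sec22 and Creb3l genes did not. The rise of Hspa5 was 8.21% (482 ± 24.1 to 522 ± 9.82 CPM; log2 fold change 0.11, SE 0.03, adjusted p = 0.000541). Hsp90b1 (ENSMUSG00000020048, chr10:86690209-86705509, minus strand), the ER member of the HSP90 family, measured 566.4, 557.4, 595.2 and 586.7 CPM with vehicle. Its treated cultures measured 664.0, 674.6, 660.2 and 652.7 CPM. The groups were well apart (576 ± 17.5 to 663 ± 9.14 CPM; log2 fold change 0.20, SE 0.02, adjusted p = 3.96e-10), with 10.3% of its exon length overlapped by exons on the opposite strand.

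The Pdia genes encode protein disulfide isomerases, which make and rearrange disulfide bonds. Pdia5 (ENSMUSG00000022844, chr16:35397312-35490873, minus strand) changed most among the folding genes, with 16.6, 15.2, 17.2 and 15.6 CPM in the vehicle cultures and 26.4, 27.9, 28.0 and 29.0 CPM in the treated ones. The lowest treated culture was well above the highest vehicle culture (16.1 ± 0.912 to 27.9 ± 1.08 CPM, a rise of 72.6%; log2 fold change 0.79, SE 0.05, adjusted p = 2.28e-17). It was also the scarcest of the folding genes per length, at 5.82 CPM per kb of exon with vehicle, where Pdia3 was at 197, Hsp90b1 at 143 and Hspa5 at 114. Pdia4 (log2 fold change 0.26), Pdia3 (0.21) and Pdia6 (0.15) rose by less.

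Hspa5, Hsp90b1 and Pdia6 are shown next because their promoters hold the ER stress element, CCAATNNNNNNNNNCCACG, read on both strands. This is the site known to be used by Atf6 and Xbp1 in the unfolded protein response, in which an overloaded ER raises its folding capacity. Capitals mark the fixed letters of the element, and all 3 stretches come from the RefSeq promoter table (GRCm38.p6). That of Hspa5 (chr2:34772020-34772049, plus strand, 70 to 41 bases before the RefSeq start) falls in the first exon of a GENCODE transcript that begins further upstream. Those of Hsp90b1 (chr10:86705525-86705664, minus strand, 220 to 81 bases before the start) and Pdia6 (chr12:17266479-17266518, plus strand, 110 to 71 bases before it) are upstream of their genes and in no annotated gene. The Hsp90b1 stretch holds the element on each strand, the second in reverse complement.
Hspa5: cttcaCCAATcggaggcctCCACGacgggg
Hsp90b1: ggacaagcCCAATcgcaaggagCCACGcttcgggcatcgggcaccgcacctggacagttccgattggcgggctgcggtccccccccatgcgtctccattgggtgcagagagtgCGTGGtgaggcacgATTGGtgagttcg
Pdia6: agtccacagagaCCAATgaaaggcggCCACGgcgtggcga

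Promoter windows from 250 bases before to 50 after the start were given for 56 of the 66 genes, in 63 windows. The ER stress element was in 3 of the 63 (4.76%), beside 39 of 32851 windows of all genes (0.119%) and 0.128% of windows of genes tested. Its CCACG letters alone, which each full element contains, were in 66.7% of the secretory windows, 32.8% of all windows and 43.4% of those of genes tested. TGACGT was in 15 of the 63 (23.8%), beside 7.51% of all windows and 10.3% of those of genes tested. These shares are a description and base composition was not matched. For TGACGT and CCACG, genes both with and without the motif rose and fell. Of 15 tested genes with TGACGT 5 rose and 2 fell (median log2 fold change 0.04), and of 40 without it 21 rose and 3 fell (0.08). With CCACG, 20 of 37 rose and 4 fell, and without it 6 of 18 rose and 1 fell. The 3 genes with the full element rose, as did 23 of 52 without it, of which 5 fell. A second stretch of Hspa5, 165 to 126 bases before the start (chr2:34771925-34771964, plus strand, upstream of the stretch above), holds TGACGT in the promoter that also carries the full element.
Hspa5: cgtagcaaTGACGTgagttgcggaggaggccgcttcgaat

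ER exit sites are organised by Sec16, and the COPII coat that buds there has an inner layer of Sec23 and Sec24 and an outer cage of Sec13 and Sec31. Sec23a (ENSMUSG00000020986, chr12:58958383-59012017, minus strand) rose most among the abundant coat genes. It measured 122.96, 119.2, 123.3 and 118.4 CPM with vehicle and 143.5, 155.8, 150.6 and 151.2 CPM with TGF-β1. The gap between the groups exceeded the range within either (a rise of 24.2%; log2 fold change 0.31, SE 0.03, adjusted p = 2.6e-13). Its paralogue Sec23b gave 0.04 and did not pass, so Sec23a went from 71.0% (70.4 to 72.1%) to 74.7% (74.2 to 75.6%) of the pair's level per exon length.

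Sec24 selects cargo for the coat, and none of its 4 genes rose. Sec24d (ENSMUSG00000039234, chr3:123267455-123365641, plus strand) measured 157.5, 162.1, 167.1 and 159.8 CPM with vehicle and 157.4, 160.2, 157.6 and 154.5 CPM with TGF-β1. The groups overlapped (log2 fold change -0.04, SE 0.03, adjusted p = 0.247). Sec24a and Sec24b each gave 0.04 and did not pass, while Sec24c fell by 6.32% (log2 fold change -0.09, adjusted p = 0.0027). Mia3 (ENSMUSG00000056050, chr1:183326725-183369553, minus strand), also called TANGO1, is the exit site receptor that loads collagen into carriers. It measured 152.3, 149.4, 153.4 and 153.0 CPM with vehicle and 152.3, 155.3, 151.8 and 151.6 CPM with TGF-β1. Its groups overlapped throughout (log2 fold change 0.01, SE 0.02, adjusted p = 0.862), in cultures where Col1a1 stood at 1535 to 1621 CPM with vehicle and 2461 to 2580 with TGF-β1.

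In the outer cage, Sec13 (0.11) and Sec31a (0.06) rose, and the scarce Sec31b fell by 19.4% (7.13 ± 0.654 to 5.74 ± 0.118 CPM; log2 fold change -0.31, SE 0.09, adjusted p = 0.00314). The call for Sec31a depended on the scaling, the filter and single cultures. With library totals as the scale its adjusted p was 0.0630, and with nearly all genes kept in the test it was 0.105. It was 0.0597 without TGF-β1 culture 5, 0.0564 without culture 6, 0.112 without culture 7 and 0.0863 without vehicle culture 4. Sec16b (ENSMUSG00000026589, chr1:157506728-157568425, plus strand), the minor exit site scaffold, had the largest log2 fold change of the members, from low counts of 47 to 61 per vehicle culture and 94 to 118 per treated one. Its levels were 1.02, 1.12, 1.28 and 1.21 CPM with vehicle and 2.29, 2.05, 2.29 and 2.51 CPM with TGF-β1. The groups were well apart (log2 fold change 0.98, SE 0.16, adjusted p = 2.04e-06). It remained at 1.69% of the Sec16 level per exon length with TGF-β1, after 0.870% with vehicle. The major gene Sec16a gave 0.01, and Sec23ip, which binds Sec23, gave 0.02.

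Most Tmed (p24) proteins and Surf4 are membrane receptors that pick cargo for the carriers, and genes were placed in this role by symbol alone. Tmed5 (ENSMUSG00000063406, chr5:108106366-108132620, minus strand) changed most, at 62.1, 57.3, 64.9 and 60.7 CPM with vehicle and 72.3, 72.3, 72.7 and 70.0 CPM with TGF-β1. The vehicle cultures were spread more widely than the treated ones and the groups did not overlap (a rise of 17.2%; log2 fold change 0.23, SE 0.03, adjusted p = 1.76e-07). Surf4, the receptor of many soluble secreted proteins, rose from 262 ± 3.73 to 305 ± 5.04 CPM (log2 fold change 0.22, adjusted p = 4.92e-11). Tmed4 (0.19), Tmed2 (0.17), Tmed8 (0.14), Tmed9 (0.13) and Tmed7 (0.12) rose too. Tmed10 and Tmed3 gave 0.05 each and did not pass. Tmed1 was lower (log2 fold change -0.16, SE 0.06, adjusted p = 0.020), but its groups overlapped and DESeq2 did not call it (adjusted p = 0.0580). The call for Tmed1 was also lost without vehicle culture 2 (adjusted p = 0.0966), vehicle culture 3 (0.0783) or TGF-β1 culture 8 (0.138). Part of the sequence of Tmed2 (21.97% of 50-base words), Tmed7 (12.1%) and Tmed10 (8.00%) recurs in other genes, and 13.6% of the exon length of Tmed1 is overlapped on the opposite strand.

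The COPI coat returns material from the Golgi, with the KDEL receptors binding the tail of escaped ER residents such as Hspa5. No coat subunit rose. Copa, the most abundant of them per length, gave 0.01 (604 ± 3.18 and 609 ± 7.34 CPM), and Copb1 and Copb2 gave 0.04 each, Cope 0.00, Copg1 -0.05 and Copz2 -0.06. Copz1 fell by 10.4% (log2 fold change -0.16, adjusted p = 5.57e-06) and Copg2 fell by 10.8% (-0.17, adjusted p = 0.00236). For Copg2, 17.8% of the exon length is overlapped on the opposite strand.

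The 3 KDEL receptors moved by unequal amounts. Kdelr3 (ENSMUSG00000010830, chr15:79516411-79527739, plus strand) measured 39.5, 38.2, 38.0 and 37.3 CPM with vehicle and 56.8, 60.02, 59.3 and 59.7 CPM with TGF-β1. Both groups were tight and far apart (38.3 ± 0.938 to 59.0 ± 1.46 CPM, a rise of 54.2%; log2 fold change 0.62, adjusted p = 1.89e-19). Kdelr2 rose by 11.95% (log2 fold change 0.16, adjusted p = 7.66e-07). Kdelr1 gave 0.06 and just missed the threshold (adjusted p = 0.0502), with treated cultures all above the vehicle ones. Of the receptors' summed level per exon length, Kdelr3 made up 14.5% (14.1 to 15.2%) with vehicle and 19.4% (19.1 to 19.6%) with TGF-β1, and Kdelr1 38.1% and 34.5%. The Kdelr3 promoter stretch 50 to 11 bases before the start (chr15:79516358-79516397, plus strand, upstream of the gene and in no annotated gene) is shown as that of the COPI and KDEL receptor gene with the largest change, with TGACGT on the opposite strand in capitals.
Kdelr3: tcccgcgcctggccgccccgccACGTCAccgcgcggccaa

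The Sec22 proteins are SNAREs or SNARE-like proteins, which drive fusion between ER and Golgi membranes. None of their genes passed. Sec22a (ENSMUSG00000034473, chr16:35311131-35363918, minus strand) had the largest absolute log2 fold change. It measured 16.3, 15.9, 19.1 and 16.1 CPM with vehicle and 14.9, 17.8, 16.1 and 16 CPM with TGF-β1. The groups overlapped (log2 fold change -0.06, SE 0.06, adjusted p = 0.518). Sec22c gave -0.05 and Sec22b 0.05.

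**Figure D3:**
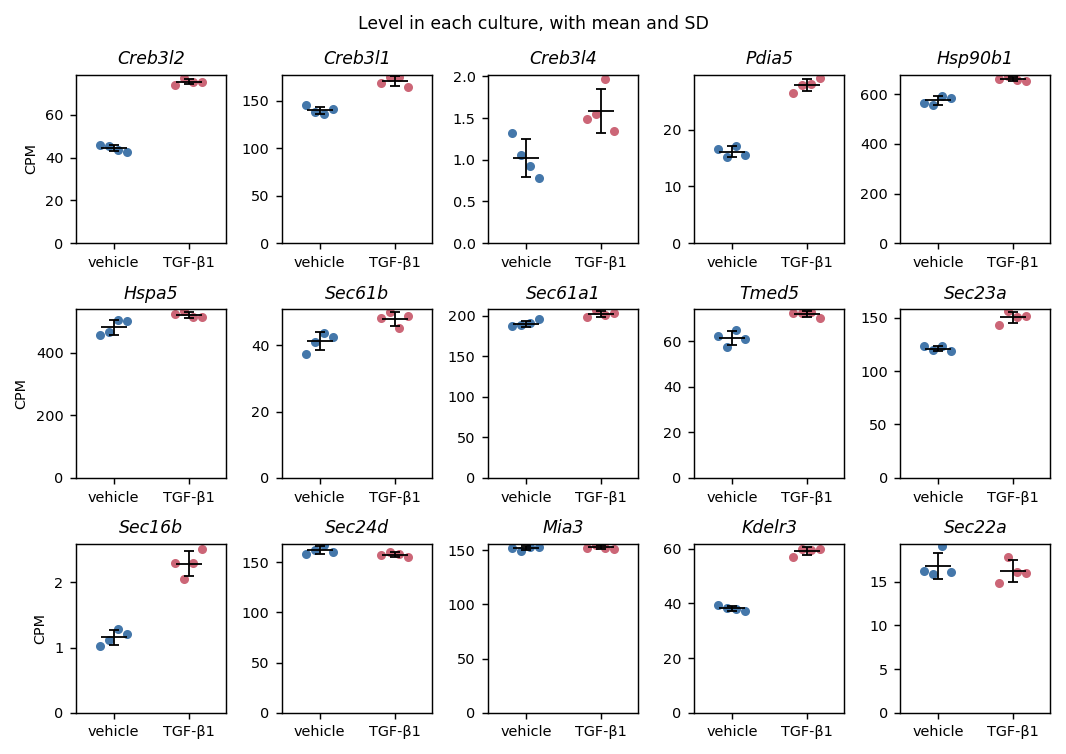
CPM in each of the 8 cultures (points) with the mean and SD of 4 cultures (bars) for 15 secretory genes, each panel with its own axis from 0. Creb3l2, Pdia5, Kdelr3 and Sec16b show wide gaps between vehicle and TGF-β1, Hspa5 and Sec61a1 narrow ones, and Sec24d, Mia3 and Sec22a overlap.

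Paralogues of one family thus moved unequally. The genes of the Creb3l, Kdelr and Sec16 families with a log2 fold change of at least 0.5, namely Creb3l2, Creb3l4, Kdelr3 and Sec16b, were not the most abundant of their family per exon length. Creb3l2 went from 10.1% (9.70 to 10.5%) to 13.5% (13.2 to 13.9%) of the Creb3l level per exon length, while Creb3l1 went from 88.8% to 85.2% although its own level rose. In the Sec23 pair the more abundant gene rose. Sec61a1 held 76.1% of its pair with vehicle and 75.2% with TGF-β1, with overlapping cultures. Shares within a family sum to 100%, so a fall in share is not a fall in level.

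**Figure D4:**
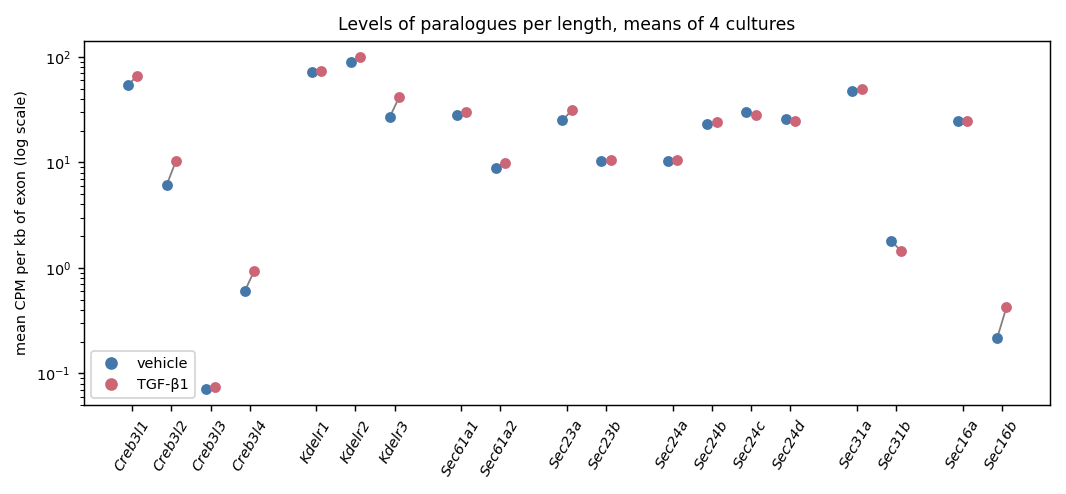
Mean level per exon length (CPM per kb, log axis) with vehicle and TGF-β1, means of 4 cultures, for the paralogues of 7 families. Lines join the same gene, and the visible steps are those of Creb3l1, Creb3l2 and Creb3l4, Kdelr3, Sec23a, Sec16b (upward) and Sec31b (downward).

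Summed over all 66 secretory genes, tested or not, the level was 9009 ± 147 CPM with vehicle (8846 to 9166). With TGF-β1 it was 9719 ± 122.5 CPM (9651 to 9903), a difference of 7.89%. Vehicle cultures 1 and 2 (8929 and 8846 CPM) lay below vehicle cultures 3 and 4 (9166 and 9093 CPM). By role, the sums differed by 33.7% for the Creb3l factors (181 to 192 and 241 to 254 CPM), 14.1% for folding, 10.1% for cargo receptors and 8.29% for targeting and translocation. For ER exit and COPII the difference was 2.75%, with narrow ranges that did not meet (1775 to 1810 and 1836 to 1849 CPM). Sums for COPI with the KDEL receptors (1842 to 1892 and 1881 to 1936 CPM) and for the Sec22 genes (130 to 140 and 131 to 138 CPM) overlapped. These sums lean on the abundant genes of each role.

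**Figure D5:**
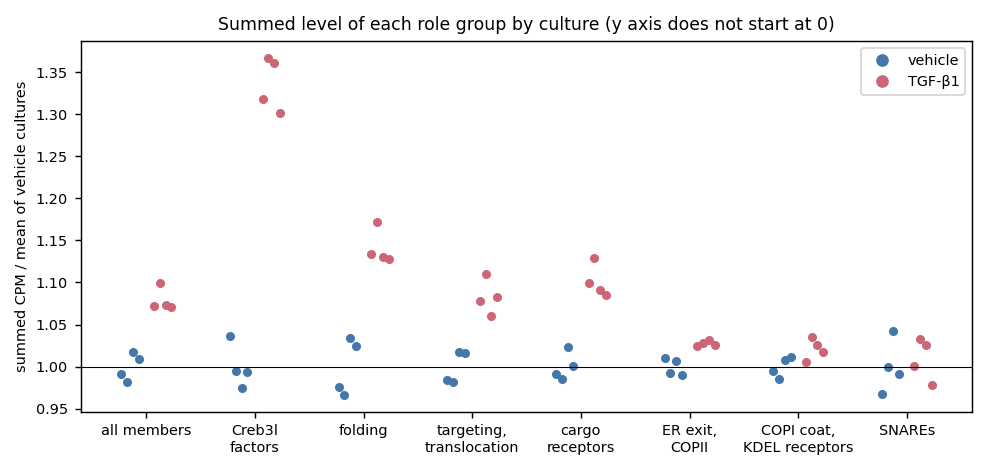
Summed CPM of each role in each culture, divided by the mean of the vehicle cultures (line at 1); the axis does not start at 0. The treated cultures lie apart from the vehicle ones for all roles except COPI with KDEL receptors and the Sec22 SNAREs.

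A second list held 138 identifiers of other genes of the pathway that the symbols above do not take, and 136 were tested. Of these 57 were higher and 20 lower, 41.9% and 14.7% with a median log2 fold change of 0.06. The shares were 20.9% and 20.3% for all genes. For the 4004 genes at 40.5 to 135.5 CPM, the range of the middle part of this list, they were 37.0% and 26.7%, with a median of 0.03. Higher calls were thus little more frequent than at like level, and lower calls were less frequent. The list's own shares also count its genes outside that range. Folding and redox genes again had the most calls upward, 23 of 30 with 2 lower (76.7% and 6.67%). Fkbp11, an ER prolyl isomerase, went from 5.16 ± 0.387 to 9.47 ± 0.568 CPM (log2 fold change 0.88, SE 0.08, adjusted p = 3.49e-12). Ero1l, the oxidase that recharges disulfide isomerases, went from 54.7 ± 1.71 to 77.2 ± 2.01 CPM (0.49), and Erp29 rose by 0.36.

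At like level 37.0% of genes were higher and 26.7% lower, and over all genes tested 20.9% and 20.3%. Of the oligosaccharyltransferase genes, which attach N-glycans, 7 of 12 rose (58.3%) and 1 fell (8.33%). Ostc, Rpn1 and Dad1 led, at 0.23 each. In targeting and insertion 7 of 22 rose (31.8%) and 3 fell (13.6%), both under the shares at like level. The median log2 fold change of this list was -0.00381. The signal peptidase subunit Spcs3 (0.38) and Tram2 (0.33) were among those upward. Emc2, a subunit of the ER membrane insertase, went down from 76.3 ± 1.19 to 55.1 ± 1.78 CPM (log2 fold change -0.47, SE 0.03, adjusted p = 7.42e-17).

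The other COPII and cargo export genes were mixed, with 5 of 18 higher (27.8%) and 6 lower (33.3%). Mcfd2, which works with the cargo lectin Lman1, rose (0.36), and Lman2l (-0.26) and Ergic3 (-0.23) fell. For COPI and Golgi genes 7 of 19 rose (36.8%, near the 37.0% at like level) and 2 fell (10.5%). Gorasp1 was at -0.19, Arfgap3 at 0.16 and Uso1 at 0.14. Among tethers and SNAREs 2 of 16 rose (12.5%) and 3 fell (18.8%), both under the shares at like level. Vti1b was at 0.16, Scfd1 at -0.15 and Ykt6 at 0.13.

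Genes of the unfolded protein response and ER degradation had 6 of 19 higher and 3 lower (31.6% and 15.8%). Both shares were under those at like level (37.0% and 26.7%), and the median log2 fold change was 0.00. The stress sensor Ern1 (0.34), the protease Mbtps2 (0.32), which releases membrane-bound factors in the Golgi, and the mannosidase-like Edem3 (0.22) had the largest changes. The 3 that fell, named after their values were seen, were Creb3 (-0.21), a factor related to the Creb3l group, Mbtps1 (-0.18), the protease that cuts before Mbtps2, and the ubiquitin ligase Syvn1 (-0.12). Other factors were picked in the same way. Xbp1 rose by 0.13 (adjusted p = 0.000508) and Atf6 by 0.19, while Atf4 gave 0.00 (adjusted p = 0.972), Ddit3 -0.03 (0.613), Herpud1 0.00 (0.944) and Eif2ak3 -0.01 (0.931).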

How the data were processed

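Total RNA of 8 cultures was extracted with a Maxwell simplyRNA kit and made into libraries with an Illumina stranded total RNA kit. The authors aligned reads to mm10 with STAR 2.7.5c in 2-pass mode, removed duplicates with SAMtools 1.15, and deposited whole-number counts per gene from featureCounts 2.0.3; strand setting, annotation release and treatment of multiply mapped reads are not given in the sources used here. Of low counts (1 to 20), 68.5 to 70.2% were even, so mates may have been counted separately. Identifiers were matched to GENCODE M21 (54495 of 54532). Counts were tested with the quasi-likelihood test of edgeR 4.0.16 (R 4.3.3; filterByExpr, TMM, robust), Benjamini-Hochberg adjusted over 22544 genes, threshold 0.05; SE is |log2 fold change| / √F. The script was tested on simulated data. DESeq2 1.42.0, other scalings, filters and omitted cultures were alternatives. Values by culture are given for called genes with an absolute log2 fold change of at least 0.5, the leading gene of a role without one, and 8 genes fixed by name; of other pathway genes, the 3 largest called changes of each list are named. Members and lists were chosen with earlier results of these data known.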

Additional observations from a re-analysis of the deposited data

Results flagged for a closer look

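In 13 of 128 groups of 4 cultures, 1 culture stood apart from the other 3 by Dixon's criterion, where chance alone would give about 6.4, or 1 in 20. With vehicle, culture 3 was high for Sec22a (19.1 CPM, nearest other 16.3), Tmed3 (62.99, nearest 61.1) and Tmed7 (156.0, nearest 145.9). Culture 1 was high for Sec24c (195.3, nearest 188.3) and low for Sec23b (62.1, nearest 64.8) and Srp68 (74.8, nearest 76.6), and culture 2 was low for Kdelr1 (132.9, nearest 133.4). With TGF-β1, culture 5 was low for Copa (597.9 CPM, nearest 612.2) and Copg2 (25.3, nearest 26.8), and culture 8 was low for Sec22b (84.8, nearest 89.7) and Tmed5 (70.0, nearest 72.3). Culture 6 was high for Sec63 (183.7, nearest 175.4) and Tmed4 (50.7, nearest 44.4).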

How the results depend on the processing

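Under 15 alternatives the secretory genes gave 30 to 36 higher and 4 to 7 lower calls. Of 37 calls, 34 held under all 15, and those of Creb3l4, Sec31a and Tmed1 did not. No called gene changed sign, and 7 others gained a call somewhere. The median log2 fold change over these genes, 0.06, ranged from 0.0664 to 0.0819 when single cultures were left out. The cause was not tested. Between scalings the median over all genes ran from -0.0224 to -0.00665 and 48.1 to 51.8% of calls were upward; with DESeq2, which also kept more genes, they were 0.0047 and 52.8%. Other pathway genes gave 48 to 57 higher and 17 to 21 lower calls when single cultures were left out.

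Genes close to 0 and not called changed sign. With library totals Mia3 was at -0.00433, Sec16a at -0.00296 and Cope at -0.00908; Cope was at -0.00387 with upper-quartile factors and at -0.00367 with all genes of at least 1 count. When single cultures were left out, the log2 fold change ran from -0.0116 to 0.0284 for Cope, -0.0765 to 0.198 for Creb3l3, -0.106 to 0.0169 for Sec22a, -0.0823 to 0.00167 for Sec22c, -0.00286 to 0.0186 for Sec16a, -0.00364 to 0.0184 for Mia3 and -0.00577 to 0.0620 for Sec61g.

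No paired analysis was possible because the labels number the groups 1 to 4 and 5 to 8 and link no vehicle culture to a treated one, although the study describes 4 isolates given both. Depth limited Creb3l3, Tmed6 and Tmed11. Counts stand for reads, not molecules, and most low counts were even. Halving the counts gave 33 higher and 5 lower calls.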
